A study of Rattus norvegicus with 7 samples.

Results

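miR-204 and miR-211 are the members of 1 microRNA (miRNA) seed family, and they were read here in whole pancreatic islets of young and older rats. The array features named rno-miR-204 (miR-204) or rno-miR-211 (miR-211) were taken, which gave 2 of the 677 rat miRNAs on the array, and miR-204 alone was among the 272 miRNAs that could be tested between the ages. The names miR-204* and miR-211*, which stand for the other strand of each hairpin, are not members and were read beside them as a further measurement of the same precursors. Islet RNA came from male Wistar rats with no treatment or mutation in the labels, 4 of them 12 months old (replicates 2, 4, 10 and 16) and 3 of them 3 months old (replicates 9, 11 and 13). Each rat was measured on 1 single-colour Agilent array, all arrays lay on 1 slide, and the study asked which islet miRNAs change with age. The islets were isolated by collagenase and were not sorted, so beta cells were read together with the other islet cells and with whatever acinar, vascular or blood cells came along.

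A miRNA guides the silencing machinery to messenger RNAs that pair with its seed, the bases 2 to 8 counted from the 5′ end, so miRNAs with 1 seed share most of their predicted targets. Both precursors lie within genes of TRP cation channels, miR-204 within Trpm3 and miR-211 within Trpm1. In beta cells, miR-204 is known for a route in which the redox protein TXNIP raises miR-204 and miR-204 lowers Mafa, a transcription factor of the insulin gene, whereas miR-211 is best known from pigment cells, where MITF drives its host gene.

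The mature sequences are shown because they carry the relation between the members. They are RefSeq sequences on the rat assembly GRCr8, written 5′ to 3′ with the seed in capitals.

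rno-miR-204-5p: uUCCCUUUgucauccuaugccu
rno-miR-211-5p: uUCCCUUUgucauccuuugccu
rno-miR-204-3p: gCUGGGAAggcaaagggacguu
rno-miR-211-3p: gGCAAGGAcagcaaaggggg

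The 5p strands, which the array calls miR-204 and miR-211, are both 22 nucleotides long, were identical at 21 positions and share the seed UCCCUUU. Their 1 difference is A17U, with the base of miR-204-5p first, the position counted from the 5′ end and the base of miR-211-5p last. Among the 693 distinct mature rat miRNA names in the sequence table, no other miRNA had this seed. The 3p strands, called miR-204* and miR-211* by the array, have different seeds, and their longest common stretch was the 8 bases GCAAAGGG, outside both seeds. The miR-204 hairpin lies at chr1:229743461-229743570 and the miR-211 hairpin at chr1:127189328-127189433, both on the plus strand and on the strand of their host gene. The array names were matched to these strands by name, and the probe sequences were not analysed here.

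miR-204 was plainly present in islets of both ages and was the only 5p strand of the family that the arrays detected. Its total gene signal, the background-subtracted fluorescence summed over its probes in linear units, was 1043 in 12-month-old replicate 2, 757 in replicate 4, 625 in replicate 10 and 1027 in replicate 16. In the 3-month-old rats it was 352 in replicate 9, 586 in replicate 11 and 471 in replicate 13. Every 12-month-old array was therefore brighter than every 3-month-old array, with 863 ± 206 against 470 ± 117 units (SD, n = 4 and 3), although the lowest older array and the highest younger array lay close together. The software's own error on each of these values was 8.602 to 8.97% of the signal, and miR-204 was called detected on all 7 arrays.

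Between the ages, the brightness of miR-204 differed by about as much as that of the median miRNA tested. Before any normalisation, the ratio of the age means of miR-204 was 1.83 and the difference of its mean log2 signals was 0.88 (two-sided exact permutation test over the 35 ways to split 7 rats, p = 0.0571; the smallest p this design allows is 0.0286). The median log2 difference of all 272 miRNAs tested was 0.79 on the same scale, so miR-204 lay 0.08 above it. The complete separation of the ages before normalisation was shared by 48.2% of the tested miRNAs in the same direction. The older arrays also had a higher 75th percentile of signal over all rat miRNAs (67.0 to 73.8 against 37.4 to 55.4 units) and more detected miRNAs (278 to 296 against 246 to 272). Less RNA on an array and less of every miRNA in the islets cannot be told apart in these data, nor can fewer cells of a type and less miRNA per cell.

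**Figure D1:**
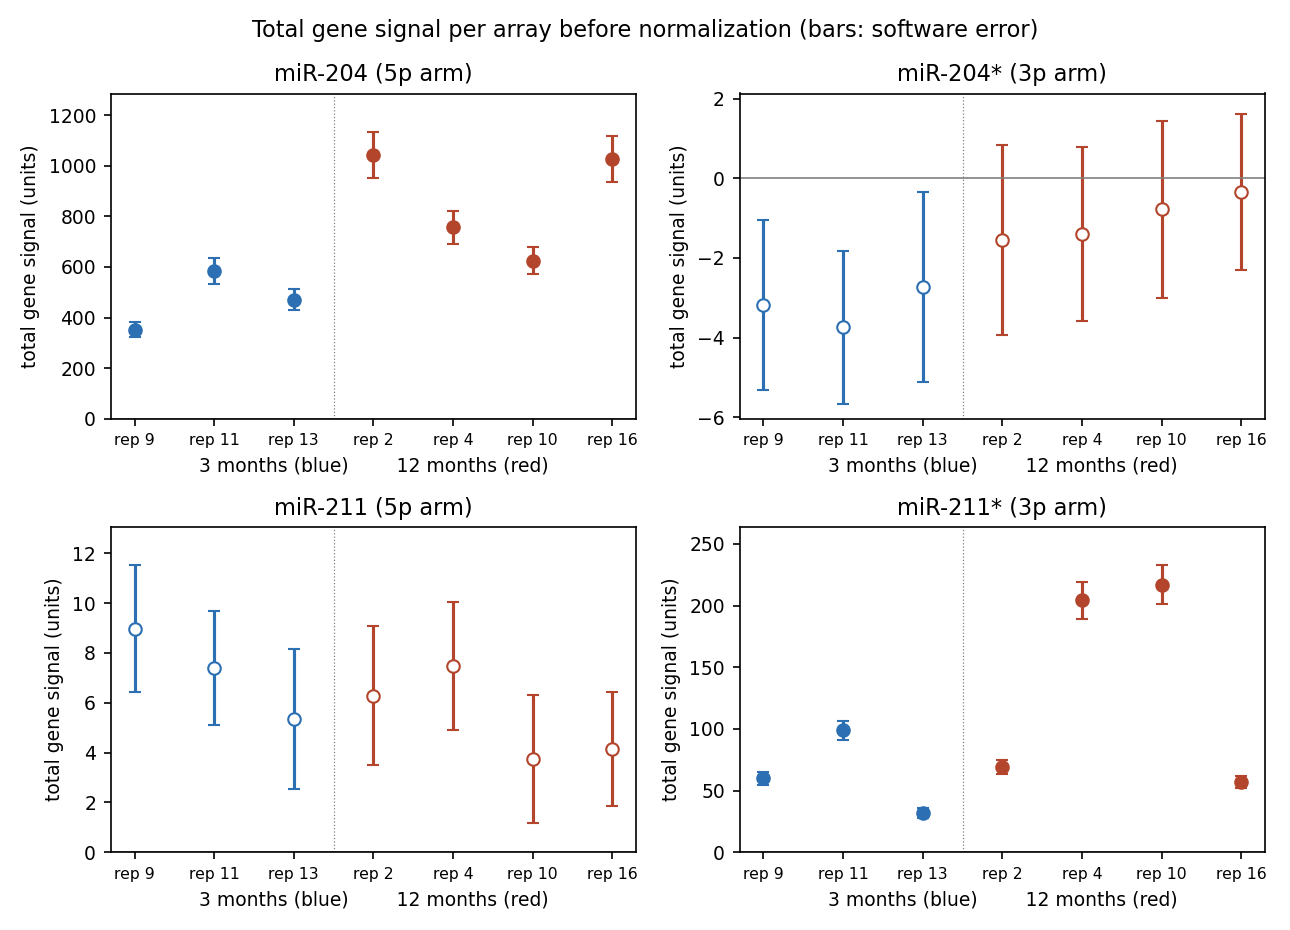
Total gene signal in linear units before normalisation for the 5p and 3p strands of both hairpins, with 1 point per array, blue for the 3 rats of 3 months and red for the 4 rats of 12 months; bars are the software's error, filled points were called detected and open points were not. miR-204 was bright on every array (352 to 1043 units), miR-211 (3.75 to 8.97 units) and miR-204* (-3.75 to -0.343 units) were not called detected on any array, and miR-211* was high in 12-month-old replicates 4 and 10.

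After quantile normalisation, which gives every array the same distribution of signals, the ages overlapped for miR-204, while they did not for 17.3% of the tested miRNAs. The normalised log2 signal of miR-204 was 9.55, 9.32, 9.17 and 9.63 in 12-month-old replicates 2, 4, 10 and 16, and 8.97, 9.32 and 9.44 in 3-month-old replicates 9, 11 and 13. Replicate 9 alone was low, and the other young rats lay inside the range of the older ones. The mean was 9.42 ± 0.21 at 12 months and 9.24 ± 0.24 at 3 months (SD, n = 4 and 3), a difference of 0.18 ± 0.18 (SE) on the log2 scale. As a fold this is 1.13, with a 95% interval from 0.844 to 1.51 (limma, adjusted p = 0.665; exact permutation test, p = 0.371). In the quantile-normalised signal, a rise of more than 1.51-fold or a fall to below 0.844 of the young level thus lay outside the interval. These limits hold for a change relative to the whole array, and they depend on the setting. On the log2 scale, the interval was -0.244 to 0.595 as reported. It was -0.358 to 0.841 with scaling to the 75th percentile of all rat miRNAs, and -0.420 to 0.434 with miR-7a as the reference. Without normalisation, its lower limit was 0.252. After quantile normalisation, 57.4% of all miRNAs tested had a larger absolute difference than miR-204, and 1.47% were called at an adjusted p below 0.05. The difference of miR-204 was smaller than the spread among rats of the same age, whose SD was 0.23 on the log2 scale, against a median of 0.27 over the tested miRNAs.

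Replicate 9 carried most of the small difference. Without it, the difference of miR-204 was 0.04, and without any other single rat it lay between 0.11 and 0.27. The arrays lay in 2 rows of the slide, and both ages were present in each row. Within row 1, which held 12-month-old replicates 2 and 4 and 3-month-old replicate 9, the difference was 0.47, and within row 2, which held replicates 10 and 16 and replicates 11 and 13, it was 0.02. With the row as a block, it was 0.20 (limma, adjusted p = 0.641).

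**Figure D2:**
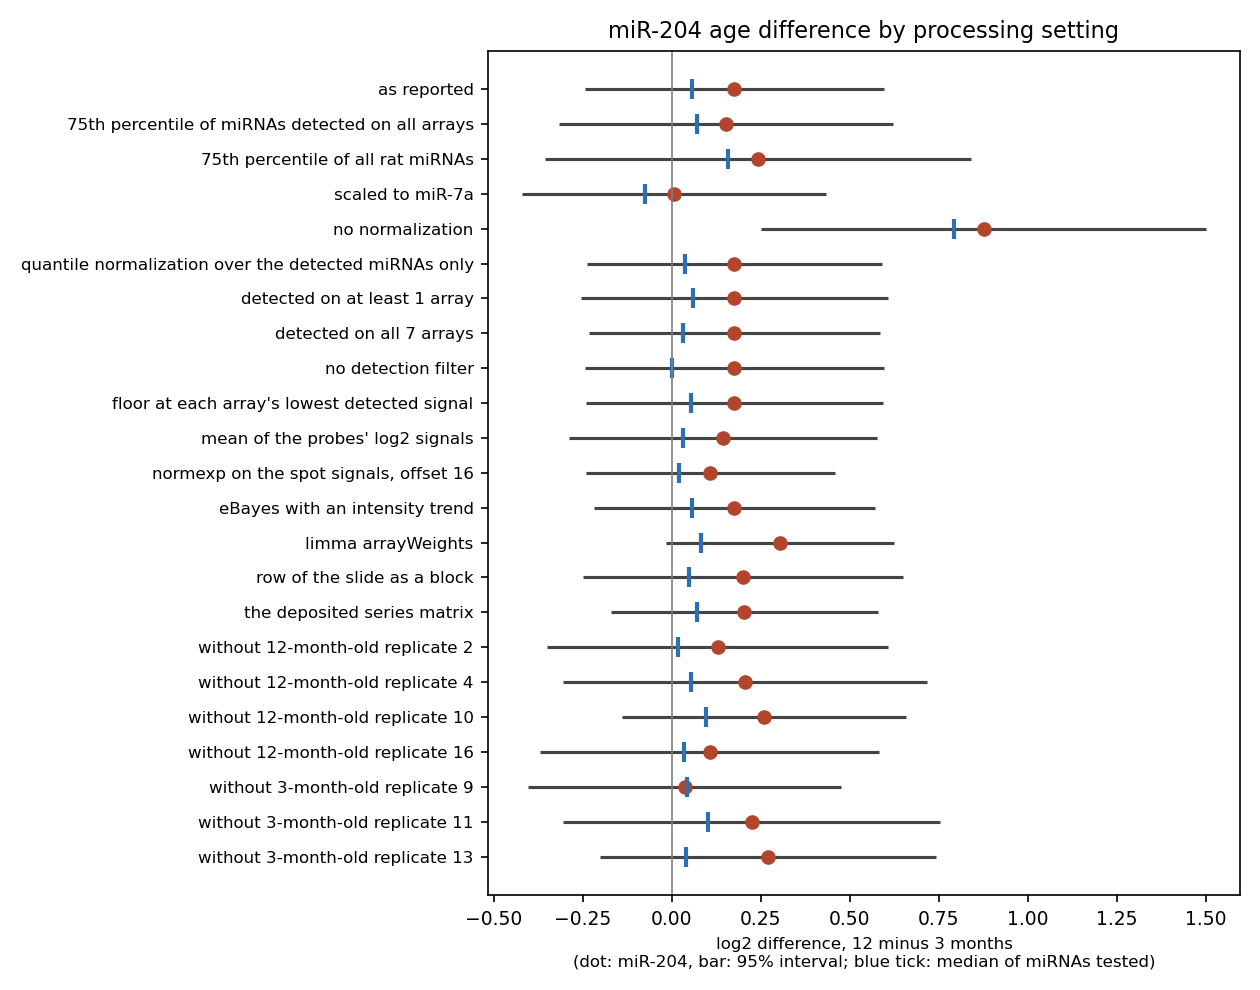
Difference of miR-204 between 12 and 3 months on the log2 scale (red points) with its 95% interval (black bars), one row for each way of processing the arrays; blue ticks are the median difference of all miRNAs tested under the same setting. Only without normalisation (0.88 for miR-204, 0.79 for the median) does the interval of miR-204 lie wholly above 0.

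The 2 probes of miR-204, each printed on 10 spots, also differed little between the ages. The main probe supplied 84.0 to 88.4% of the signal and the other 11.6 to 16.01%. After a separate quantile normalisation over all rat probes, the log2 differences were 0.06 for the main probe and 0.11 for the other (exact permutation tests, p = 0.8286 and 0.543). Both were below the 0.18 of miR-204 when normalised over all miRNAs. The spots of 1 probe varied little on an array, with a coefficient of variation of 2.91 to 8.11%. The spread among rats of the same age was larger, at 23.9% of the mean total gene signal at 12 months and 24.8% at 3 months.

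miR-204 was also set against miRNAs listed as endocrine markers on its own array, which needs no normalisation between arrays. Part of the list is an epithelial family, so the list does not read endocrine cells alone. The 8 miRNAs used, all detected on all 7 arrays, were miR-375, which is abundant in beta cells and restrains insulin secretion, the islet miRNAs miR-7a and miR-7b, and the epithelial family miR-200a, miR-200b, miR-200c, miR-141 and miR-429. The log2 signal of miR-204 minus their mean was -2.40, -2.55, -2.58 and -2.33 in 12-month-old replicates 2, 4, 10 and 16. It was -3.03, -2.59 and -2.44 in 3-month-old replicates 9, 11 and 13. Again replicate 9 was the lowest and the remaining rats overlapped. The change between the ages was 0.22 (mean -2.47 ± 0.12 against -2.68 ± 0.31, SD, n = 4 and 3; exact permutation test, p = 0.171), and it was 0.05 without replicate 9. Within row 1 of the slide it was 0.55, and within row 2 it was 0.06. Against miR-375 alone the change was 0.30 (exact p = 0.2), and against miR-7a alone it was 0.0066 (exact p = 0.971).

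**Figure D3:**
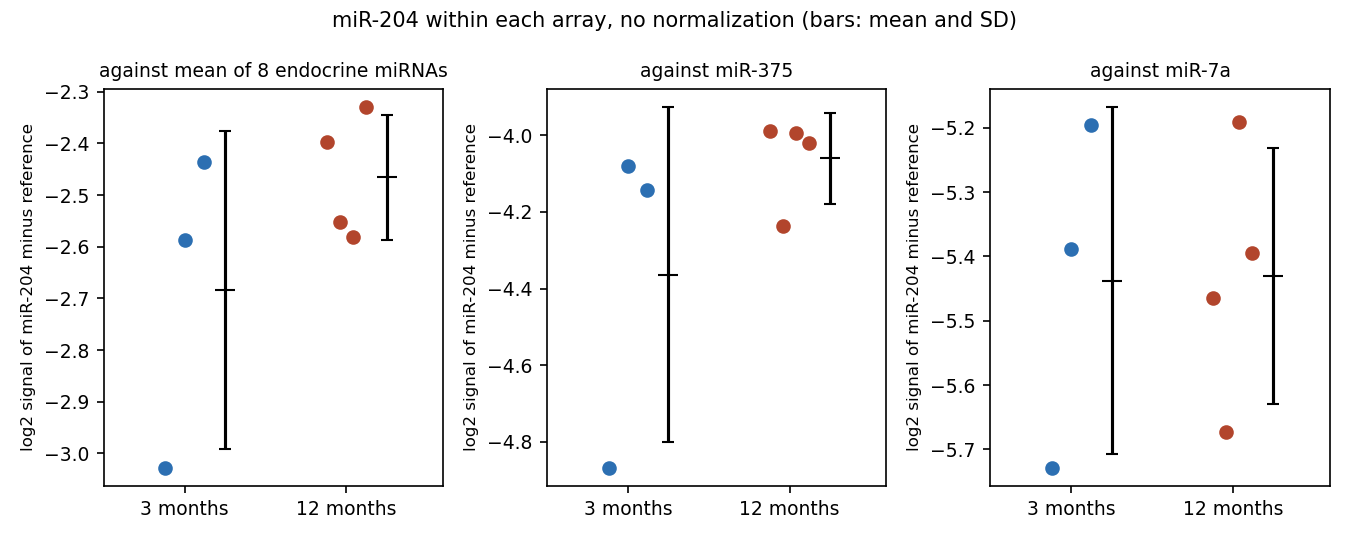
Log2 signal of miR-204 minus that of reference miRNAs on the same array, with 1 point per rat and black bars for the mean and SD of each age, blue for 3 months and red for 12 months. The lowest young rat in each panel is replicate 9 (-3.03 against the mean of the 8 endocrine miRNAs), and the other rats of both ages overlap.

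miR-211 was not detected on any array. Its total gene signal was 6.28, 7.49, 3.75 and 4.15 units in 12-month-old replicates 2, 4, 10 and 16, and 8.97, 7.41 and 5.35 units in 3-month-old replicates 9, 11 and 13. The single values behind the means of 5.41 ± 1.77 and 7.24 ± 1.81 (SD, n = 4 and 3) overlapped before normalisation, where the older arrays were brighter over all miRNAs. Counted from the brightest of the 677 rat miRNAs on its array, miR-211 held place 285 to 322 at 12 months. At 3 months it held place 254 to 274. These places did not overlap, nor did the normalised signals of 17.3% of the tested miRNAs. No fold is given because both ages were below detection. The software's error was 2.27 to 2.80 units, so the signal was 1.46 to 3.53 times its error. The detection flag is set from the probes one by one, and none of the 3 probes of miR-211 exceeded 2.78 times its error on any array.

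The signal of miR-211 nevertheless lay above the lowest signal that was called detected on the same array, which was 1.42 to 4.92 units. Among the miRNAs not detected on the same array, 91.2 to 98.8% were dimmer than miR-211. Its spots had median raw signals of 48 to 55.75 units, beside 48 to 55 units for the negative control spots. miR-211 is thus described as not well above background in these islets, not as absent. With 1 base between the 5p strands, how far the probes of each read the other was not tested. The array with the lowest miR-204 signal, 3-month-old replicate 9, had the highest miR-211 signal, but the other arrays held no such order. 12-month-old replicate 2, the highest in miR-204, had 6.28 units of miR-211, above 12-month-old replicates 10 and 16 (3.75 and 4.15 units).

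The 3p strands went the other way, since that of miR-204 was not detected and that of miR-211 was detected throughout. miR-204*, the passenger strand of the bright miR-204, had total gene signals from -3.75 to -0.343 units after background subtraction and was not called detected on any array. miR-211*, from the hairpin whose 5p strand was below detection, was called detected on all 7 arrays. Its total gene signal was 69.2, 204.2, 217 and 57.2 units in 12-month-old replicates 2, 4, 10 and 16, and 59.9, 98.9 and 32.0 units in 3-month-old replicates 9, 11 and 13. Replicates 4 and 10 stood above all other rats, whereas the other two older rats lay inside the range of the young ones. Levels of different probes were not set against each other, so no ratio of the strands is given. How far the probes of miR-211* read other RNAs was not tested. The longest stretch that miR-211-3p shared with another mature rat miRNA was 9 bases.

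miR-211* did not differ between the ages beyond its spread. Its normalised log2 signal was 6.59 ± 1.04 at 12 months and 6.22 ± 0.59 at 3 months (SD, n = 4 and 3), a difference of 0.37 ± 0.55 (SE). As a fold this is 1.29, with a 95% interval from 0.538 to 3.104 (limma, adjusted p = 0.817; exact permutation test, p = 0.6). The spread among rats of the same age was an SD of 0.89 on the log2 scale, and only 4.78% of the tested miRNAs varied more. Its 2 probes each gave between 47.8 and 52.2% of the signal, their spots varied by 3.13 to 8.32%, and the software's error was 7.22 to 12.8% of the signal. The scatter of miR-211* between arrays was thus larger than that between its spots, with total gene signals that varied by 62.4% of the mean at 12 months and 52.8% at 3 months (SD, n = 4 and 3). Without 12-month-old replicate 10, the difference of miR-211* was -0.0031, and with array weights it was -0.54 (limma, adjusted p = 0.423).

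The miRNAs most like miR-204 over the 7 arrays were chosen by Pearson's r of the normalised log2 signal among the 237 other miRNAs detected on all arrays. They were miR-872 (r = 0.99), miR-30e* (0.96), miR-146b (0.96), miR-99a* (0.94) and miR-30c-2* (0.89), against a median r of 0.21 with all 237. Each was lowest in 3-month-old replicate 9 and highest, or tied for highest, in 12-month-old replicate 16, as miR-204 was. None was called between the ages (over all tested miRNAs 1.47% were called), with log2 differences from 0.11 to 0.26. These coefficients describe the same 7 libraries, normalised together, and carry no test. None of these miRNAs has the seed of miR-204.

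miR-211* had another profile, with r = -0.56 to miR-204, place 219 of 237. The miRNAs most like miR-211*, named after their values were seen, were miR-1949 (r = 0.99), miR-483* (0.96), miR-3593-3p (0.94), miR-327 (0.94) and miR-146a (0.87). Like miR-211*, each was higher in 12-month-old replicates 4 and 10 than in any other rat.

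**Figure D4:**
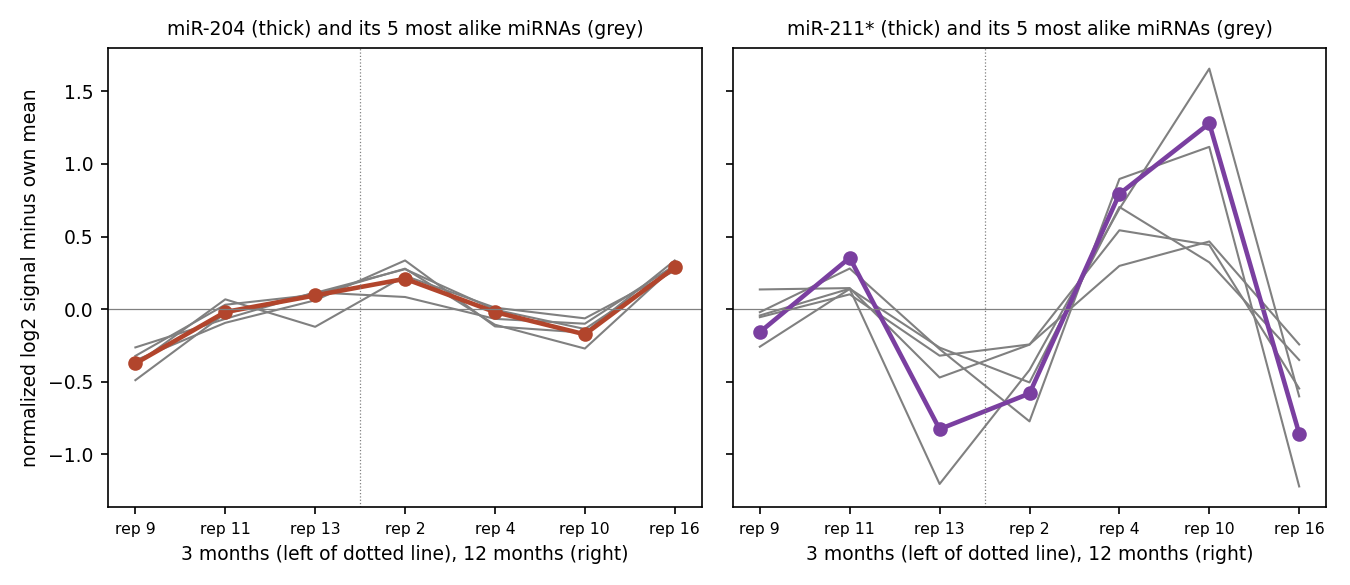
Normalised log2 signal minus each miRNA's own mean over the 7 arrays, for miR-204 (left, red) and miR-211* (right, purple) with the 5 miRNAs most like each (grey); lines join the values of 1 miRNA, and the order of rats within an age has no meaning. miR-204 and its group are low in 3-month-old replicate 9 and vary over a narrow range, and miR-211* and its group are high in 12-month-old replicates 4 and 10.

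Other miRNAs tied to TXNIP were described as a list, since miR-204 belongs to that pathway. The list held the miR-200 family, whose members promote beta-cell death under stress, and miR-124, a neuronal miRNA that also acts in beta-cell development. All 6 were tested, 1 rose with age and none fell (over all tested miRNAs 1.1% rose), with a median log2 difference of -0.03 beside 0.06 over all miRNAs tested. The one that rose was miR-124, which no array of the young rats detected. Its total gene signal was 14.7 to 134 units at 12 months. On the normalised log2 scale, the older mean was at least 19.7-fold above the mean of the lowest detected signals of the young arrays. This bound itself was not tested. The limma test of miR-124 (adjusted p = 0.00269) used young values that were all at the floor, with an SD of 0. The largest differences among the rest were -0.30 for miR-141 (adjusted p = 0.493) and -0.25 for miR-200c (adjusted p = 0.399).

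miR-204 acts on insulin expression through Mafa, so other miRNAs known to affect insulin expression were read too. Of the 6 listed, 4 were tested and none was called (over all tested miRNAs 1.47% were called). There were 1 higher and 3 lower at 12 months, with a median log2 difference of -0.08. The largest differences were 0.21 for miR-26b (adjusted p = 0.465) and -0.19 for miR-182 (adjusted p = 0.817). miR-148a was not matched, and the name miR-148b met its 5p strand, detected on 2 arrays and not tested. The 3p strand of miR-148b differed by 0.04 ± 0.15 (SE).

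Of 8 listed islet miRNAs, 6 were tested and none was called (over all tested miRNAs 1.47% were called). There were 2 higher and 4 lower, with a median of -0.14. The largest differences were -0.32 for miR-30d (adjusted p = 0.565), which has been tied to insulin transcription, and -0.27 for miR-7b (adjusted p = 0.574). miR-184, which acts on beta-cell growth, and miR-9, which acts on insulin release, were not detected on any array. The lists overlap, since miR-375, miR-7a and miR-7b of this list and the miR-200 family of the TXNIP list are the 8 endocrine miRNAs used as the reference above.

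**Figure D5:**
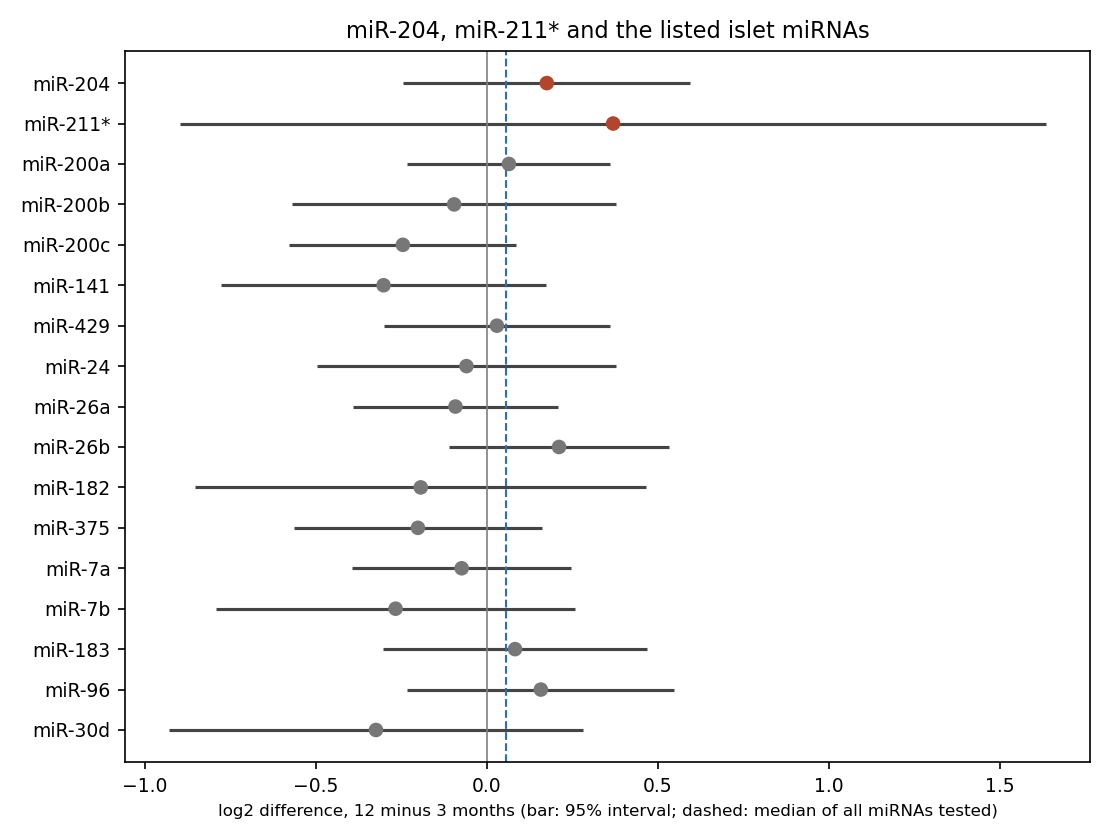
Difference between 12 and 3 months on the log2 scale with its 95% interval for miR-204 and miR-211* (red) and for the tested miRNAs of the TXNIP, insulin expression and other islet lists (grey), miR-124 left out; the dashed line is the median of all miRNAs tested (0.06). Every interval drawn includes 0, and miR-211* has the widest.

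The make-up of the islet preparations was read from marker miRNAs, as whole islets hold several cell types. None of the 8 endocrine miRNAs was called (over all tested miRNAs 1.47% were called). There were 2 higher and 6 lower at 12 months, with a median log2 difference of -0.15. Their summed signal was 49191 to 85889 units at 12 months and 36644 to 50029 units at 3 months. These sums, and those of the lists that follow, are signals before normalisation and hold the brightness difference of the whole arrays (median 0.79 on the log2 scale), whereas the medians and directions are after normalisation. Among the markers of other cells, no miRNA passed the adjusted test. An unadjusted limma p below 0.05 was found for 3 of 3 acinar, 4 of 5 mesenchymal and 2 of 4 leukocyte miRNAs. It was found for 1 of 2 endothelial and 0 of 2 erythroid miRNAs, and for 21.7% of all miRNAs tested. The markers of a list are not independent of each other. For example, miR-142-3p and miR-142-5p are strands of the same hairpin, as are miR-199a-3p and miR-199a-5p. The 3 acinar miRNAs tested (miR-216a, miR-216b and miR-217) were all lower at 12 months, with a median of -2.11 and summed signals of 149 to 1451 against 887 to 1722 units. The ages overlapped in each of them (exact permutation tests, p = 0.143, 0.114 and 0.0857).

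The 5 mesenchymal miRNAs (miR-143, miR-145, miR-199a-5p, miR-199a-3p and miR-214) were all higher at 12 months, with a median of 1.16 and summed signals of 2629 to 3645 against 736 to 1711 units. Of the leukocyte miRNAs miR-142-3p, miR-142-5p, miR-150 and miR-223, 3 were higher and 1 was lower, with a median of 0.62 and sums of 310 to 663 against 142 to 222 units. Both endothelial miRNAs, miR-126 and miR-126*, were higher, with a median of 0.32 and sums of 2173 to 2794 against 1017 to 1754 units; miR-126 alone differed by 0.07 and miR-126* by 0.58. Both erythroid miRNAs tested, miR-451 and miR-144, were lower after normalisation, with a median of -0.52. Their sums before normalisation ran the other way, at 144 to 289 against 86.7 to 224 units. miR-148a, miR-155 and miR-486 of these lists were not matched, and each marker that was matched was called detected on at least 1 array. The part of cell make-up in the values of miR-204 and miR-211* was not tested.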

How the data were processed

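Islet RNA of 7 rats was read on single-colour Agilent arrays with 14255 spots each, 13540 of them for rat miRNAs; no spot was saturated. The authors deposited background-subtracted intensities on a linear scale from Agilent Feature Extraction (version 10.7.3.1, per the submitters' processing notes), with a detection flag and an error for each miRNA. A matrix of log2 values, deposited by the authors as well, had a median of 6.44 in every column. It is quantile normalised according to a supplementary note, and its offset is unknown. It held 307 miRNAs, as many as were detected on at least 1 array. miR-204 and miR-211* were among them, and miR-211 and miR-204* were not.

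Groups follow the age given in the labels, and all columns were mapped. The total gene signal of 677 rat miRNAs was floored at 1, put on the log2 scale and quantile normalised in R (version 4.3.3) with the limma package (version 3.58.1). Those flagged as detected on all arrays of the older or of the younger rats (272) were tested with lmFit and eBayes, with Benjamini-Hochberg adjustment and a threshold of 0.05. Single values were tested with two-sided exact permutation tests. A fold for a miRNA below detection in 1 age is a bound against the lowest detected signal of each array. The code was tested on simulated data; Python (version 3.11.15) and matplotlib (version 3.10.9) drew the figures.

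The members and lists were chosen with earlier results of these data known. Named miRNAs are the members and their star forms, in each list those called and the 2 largest differences, the 5 most like miR-204, and any with the same seed. The alternatives were other scalings, filters, floors, probe summaries, background corrections (normexp on median spot signals), variance models, the slide row, the deposited matrix, the methods' t-test and each rat left out. The array header names an older rat assembly, so coordinates and sequences are those of RefSeq. Other experiments of the study were not analysed here. The number of arrays limits the precision.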

Additional observations from a re-analysis of the deposited data

How the results depend on the processing

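The log2 difference of miR-204 stayed above 0 under all 25 alternatives, at its lowest with miR-7a as the reference (0.0066). With no normalisation it was 0.88 (limma, adjusted p = 0.0286), and within row 1 of the slide it was 0.47. Leaving out 1 rat at a time gave 0.04 to 0.27. Over the 4 alternative scalings, the median of all tested miRNAs was 0.07, 0.16, -0.08 and 0.79; each adds 1 constant per array, so the distance of miR-204 from it is 0.08 in all of them by construction. Relative to the endocrine miRNAs, the difference was 0.55 within row 1 and 0.05 to 0.34 with 1 rat left out. For miR-211*, array weights gave -0.54, and leaving out 1 rat gave -0.0031 to 0.70; the cause of these reversals was not tested.

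The number of miRNAs called, 4 as reported (3 higher), was 20 (3 higher) with scaling to the 75th percentile of those miRNAs that all arrays detected, 9 (7 higher) with that of all rat miRNAs, 15 (3 higher) with miR-7a as the reference and 171 (169 higher) with no normalisation. It was 1 with detection on all 7 arrays, where fewer miRNAs were tested, 2 with normexp, 48 (21 higher) with array weights, 8 (5 higher) in the deposited matrix and 4 to 10 with 1 rat left out, 10 being without 12-month-old replicate 10. The methods' t-test called 3. Neither miR-204 nor miR-211* was called in any of these but for miR-204 with no normalisation. Without the detection filter, miR-211, which no array detected, was lower at 12 months, with an unadjusted limma p of 0.0188 and an adjusted p of 0.271 among 677. In that setting, 80 miRNAs had an unadjusted limma p below 0.05. No paired analysis was possible because the ages share no replicate numbers.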
